A study of Mus musculus with 8 samples.

Results

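The 10 genes described here encode chaperones of the endoplasmic reticulum (ER) and regulators of the unfolded protein response in mouse kidney. They were taken by name (Hspa5, Hsp90b1, Pdia4, Pdia6, Sdf2l1, Manf, Creld2, Dnajb9, Syvn1 and Xbp1), and all 10 were found among the 54532 genes of the deposited table, each once and each above the filter of a mean of 0.5 FPKM that 13376 genes passed. FPKM is the number of fragments scaled to gene length and to library size, so levels can be compared between genes. Polyadenylated RNA of whole kidney was sequenced from mice named as ICR, an outbred stock, in 4 libraries after bisphenol A (BPA), a plastics monomer that binds estrogen receptors weakly, and in 4 after vehicle. The vehicle libraries serve as the control, and no genetic change is named for either group. No label gives dose, route, duration, sex, age or the number of animals, so p-values reflect the spread among these libraries alone, which may be technical.

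Secreted and membrane proteins fold in the ER, where chaperones such as BiP hold unfolded chains and disulfide isomerases pair their cysteines. When unfolded proteins accumulate, the sensors IRE1, PERK and ATF6 raise folding capacity, slow translation and send misfolded chains for degradation. Cleaved ATF6, together with the CCAAT-binding factor NF-Y, acts through the ER stress response element of chaperone promoters, and IRE1 splices the Xbp1 transcript into the form that encodes an active transcription factor. In kidney, proximal tubule cells make large amounts of membrane transporters and uptake receptors, all of which pass through the ER.

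RefSeq promoters of GRCm38.p6 matched 9 of the 10 genes, and 5 of these held the ER stress response element (CCAAT, then 9 bases of any kind, then CCACG) in the window from 250 bases before to 50 bases after the transcript start. Among all 32851 promoters of that length, 39 (0.119%) held it on either strand. The elements of the 3 chaperone genes with the highest levels among the 5 are shown on the strand of the gene with 5 bases on each side, and capitals mark the element. A site that lies on the opposite strand reads as its reverse complement.
Hspa5, chr2:34772025-34772043: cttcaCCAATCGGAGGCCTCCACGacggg
Hsp90b1, chr10:86705638-86705656: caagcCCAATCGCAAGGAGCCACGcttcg
Hsp90b1, chr10:86705533-86705551, opposite strand: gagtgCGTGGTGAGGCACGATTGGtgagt
Pdia6, chr12:17266491-17266509: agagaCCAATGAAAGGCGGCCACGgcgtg

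The whole 250 bases before the start are shown for Creld2 and Syvn1, since every BPA library lay below every vehicle library for both genes and since no gene model of the table covers these bases. Capitals again mark the element, which is on the opposite strand in Creld2 and on the strand of the gene in Syvn1.
Creld2, chr15:88819396-88819645, plus strand: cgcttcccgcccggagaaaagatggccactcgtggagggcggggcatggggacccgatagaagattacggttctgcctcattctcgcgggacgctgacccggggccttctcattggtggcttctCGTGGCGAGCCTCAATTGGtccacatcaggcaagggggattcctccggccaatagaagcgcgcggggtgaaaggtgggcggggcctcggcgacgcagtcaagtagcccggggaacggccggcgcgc
Syvn1, chr19:6046326-6046575, plus strand: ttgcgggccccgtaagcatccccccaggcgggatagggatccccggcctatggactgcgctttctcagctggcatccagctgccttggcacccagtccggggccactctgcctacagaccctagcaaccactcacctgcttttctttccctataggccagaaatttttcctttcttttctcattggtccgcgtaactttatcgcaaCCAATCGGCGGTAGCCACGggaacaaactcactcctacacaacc

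Counted from the RefSeq start, the element ran from -65 to -47 in Hspa5, which is inside the longer gene model of the deposited table. In Hsp90b1 the elements began at -212 and -107, in Pdia6 at -98, in Creld2 at -126 and in Syvn1 at -44. Pdia4, Sdf2l1, Dnajb9 and Xbp1 had none in these windows. The second ER stress response element (ATTGG, then 1 base, then CCACG) was in 0 of the 9 windows and in 0.0365% of all promoters, and the XBP1 and ATF6 motif TGACGTGG in 0 of 9 and in 0.676%. The core ACGTG, which is part of the latter, was in 3 of 9 (Hspa5, Pdia6 and Dnajb9) against 19.6% of all promoters. A CCAAT box, which is part of the first element, was in 8 of 9 against 37.4%, Xbp1 being the exception.

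**Figure D1:**
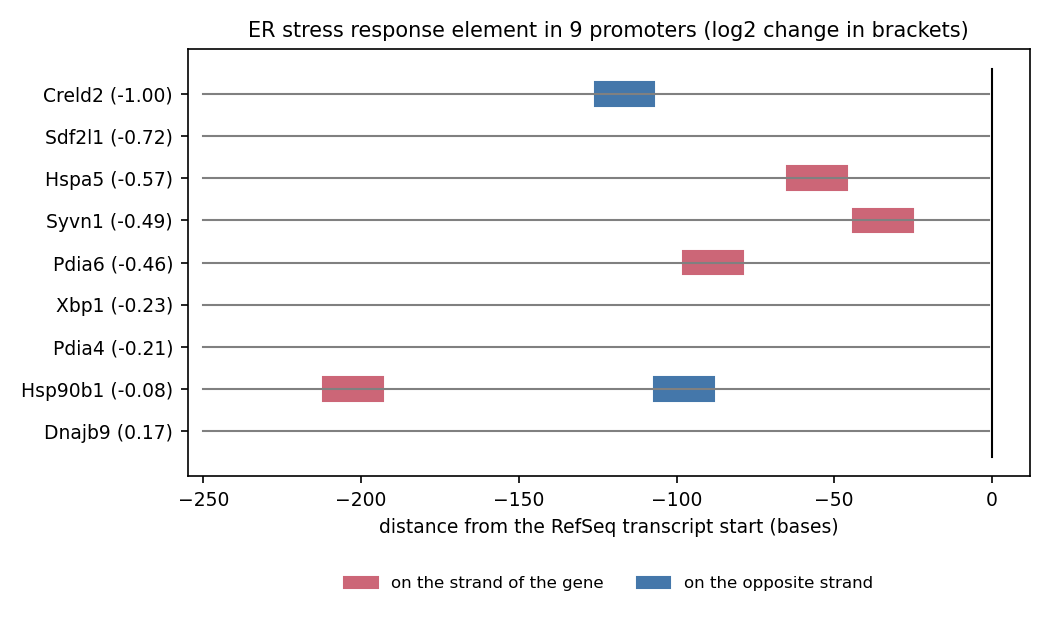
Position of the ER stress response element in the 250 bases before the RefSeq transcript start of 9 genes, ordered by their log2 change in BPA (in brackets). Red boxes lie on the strand of the gene and blue boxes on the opposite strand; 5 genes hold an element, and Hsp90b1, with a log2 change of -0.084, holds 2.

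In vehicle kidney the chaperone BiP, encoded by Hspa5, was the most abundant of the 10 transcripts at 177 ± 20.3 FPKM (SD, n = 4), above 98.1% of tested protein-coding genes by vehicle mean. Hsp90b1 followed at 98.7 ± 21.7 FPKM, and the ranges of these genes did not overlap. Pdia6 (61.4 ± 11.95 FPKM), Xbp1 (58.5 ± 10.5 FPKM) and Pdia4 (56.9 ± 3.81 FPKM) were next and overlapped each other. Creld2 (34.2 ± 9.02 FPKM) overlapped Dnajb9 (25.7 ± 3.05 FPKM), which overlapped Manf (19.1 ± 3.80 FPKM). Syvn1 (12.8 ± 1.58 FPKM) and Sdf2l1 (12.3 ± 7.42 FPKM) were lowest, and Sdf2l1 varied most between vehicle libraries (coefficient of variation 60.1%, against 6.70% for Pdia4).

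After BPA, 9 of the 10 genes had a lower mean than in vehicle, Dnajb9 being the exception. The median log2 change of the 10 was -0.47 on the log2(FPKM + 1) scale, from -1.003 for Creld2 to 0.17 for Dnajb9, whereas the median over all 13376 tested genes was -0.012 and 52% of them had a change below 0. None of the 10 passed limma's test at a Benjamini-Hochberg adjusted p under 0.05, at which 0.00748% of all genes were called (1 gene). At an unadjusted p under 0.05, 4 of the 10 were lower (Creld2, Syvn1, Hspa5 and Manf) and 0 higher, against 6.83% of all genes lower and 4.18% higher. For these same 4 genes all BPA libraries lay below all vehicle libraries, which held for 4.66% of all genes, and for 0 of the 10 did all BPA libraries lie above, against 3.23%. All 10 are protein-coding genes with a mean of at least 5 FPKM. Of the 5990 such genes, 55.3% had a change below 0. At an unadjusted limma p under 0.05, 523 of the 5990 were lower and 257 higher. All BPA libraries lay below all vehicle libraries for 353 of the 5990 and above them for 204. Limma-voom on recovered whole reads also called 0 of the 10, with 4 lower at an unadjusted p under 0.05. Whether fewer cells of a type or less RNA per cell lies behind a lower level cannot be told apart in whole tissue.

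**Figure D2:**
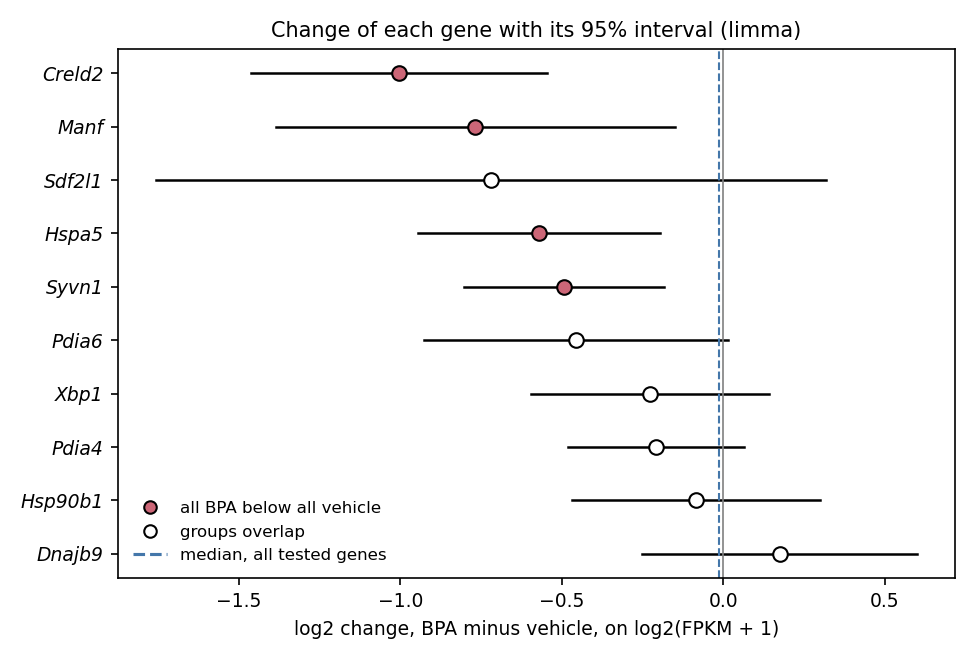
Log2 change of each gene (BPA minus vehicle, on log2(FPKM + 1)) with its 95% interval from limma over 4 and 4 libraries. Filled points mark the 4 genes whose BPA libraries all lay below the vehicle libraries, and the dashed line the median of all tested genes (-0.012); the intervals of Creld2, Manf, Hspa5 and Syvn1 lie below 0.

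Among the large chaperones, Hspa5 stood at 204, 178, 171 and 155 FPKM in vehicle replicates 1 to 4 and at 137, 131, 124 and 88.0 FPKM in BPA replicates 1 to 4. The highest BPA library was thus below the lowest vehicle library, and BPA replicate 4 was the lowest of all. The mean in BPA was 120 ± 22.1 FPKM, 0.678 times that in vehicle (log2 change -0.57, 95% interval -0.95 to -0.20, limma adjusted p = 0.365).

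Hsp90b1 encodes GRP94, the HSP90 of the ER, whose clients include integrins and Toll-like receptors. Its levels were 128, 102, 86.9 and 78.0 FPKM in vehicle and 107, 83.8, 84.0 and 92.8 FPKM in BPA, so the groups overlapped throughout. The log2 change was -0.084 (95% interval -0.47 to 0.30, adjusted p = 0.855); its sign turned without vehicle replicate 1 (0.047), with quantile normalization (0.023) and within replicates 3 and 4 (0.099). BiP and GRP94 transcripts, whose ranges were apart in vehicle, overlapped in BPA through replicate 4 alone, where they were at 88.0 and 92.8 FPKM. In BPA replicates 1 to 3 they stayed apart, at 124 to 137 and 83.8 to 107 FPKM. The gene overlaps the pseudogene 1810014B01Rik on the opposite strand, which stood at 1.91 and 2.14 FPKM in the groups. The sources used here do not state whether counting used strand, so reads of the shared bases cannot be told apart.

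The disulfide isomerases differed in their values. Pdia6, which encodes the isomerase P5, was at 77.5, 59.8, 59.7 and 48.5 FPKM in vehicle replicates and at 58.4, 49.2, 40.7 and 31.7 FPKM in BPA. All 4 BPA libraries lay below the vehicle mean and 2 of them below every vehicle library (log2 change -0.46, 95% interval -0.93 to 0.015, adjusted p = 0.462; -0.30 without BPA replicate 4). Pdia4, which encodes ERp72, was at 62.5, 54.0, 55.4 and 55.7 FPKM in vehicle replicates and at 45.7, 45.7, 46.6 and 59.4 FPKM in BPA. BPA replicate 4 was inside the vehicle range and the other 3 below it. The log2 change of Pdia4 was -0.21 (95% interval -0.48 to 0.063, adjusted p = 0.516), and -0.30 without BPA replicate 4 (adjusted p = 0.401). Replicates 1 and 2 alone gave -0.34, and replicates 3 and 4 alone -0.077.

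Cofactors and secreted chaperones showed both the lowest and the highest changes of the 10. Creld2, an ER protein of disulfide exchange that stressed cells also secrete, was at 46.6, 34.4, 30.1 and 25.6 FPKM in vehicle replicates and at 18.7, 19.8, 13.3 and 13.8 FPKM in BPA. No library of one group reached the other, and the BPA mean of 16.4 ± 3.33 FPKM was 0.479 times that of vehicle. With a log2 change of -1.003 (SE 0.202, 95% interval -1.46 to -0.54) Creld2 had the 40th smallest p of all tested genes, yet its adjusted p was 0.271. Under 20 other settings its log2 change ran from -1.13 to -0.85, with adjusted p from 0.134 to 0.575.

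Manf, a BiP-binding protein that is secreted when ER calcium runs low, was at 24.7, 17.7, 16.6 and 17.2 FPKM in vehicle replicates and at 12.003, 15.2, 12.4 and 5.49 FPKM in BPA. The groups did not overlap, with BPA replicate 2 and vehicle replicate 3 nearest to each other. The log2 change was -0.77 (95% interval -1.39 to -0.15, adjusted p = 0.393) and -0.49 without BPA replicate 4 (adjusted p = 0.423). The gene model of Manf in the table runs from 106838312 to 106891979 on chromosome 9 and overlaps Dcaf1 and Rbm15b, which stood at 3.80 and 3.17 FPKM in vehicle.

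Sdf2l1, which encodes a partner of the BiP cochaperone ERdj3, was at 22.1, 14.0, 7.06 and 6.13 FPKM in vehicle replicates and at 7.80, 7.001, 2.44 and 10.3 FPKM in BPA. Vehicle replicates 1 and 2 were above every other library, while vehicle replicates 3 and 4 lay within the BPA range. Its log2 change of -0.72 had the widest interval of the 10 (-1.76 to 0.32, adjusted p = 0.550). The change was -1.15 within replicates 1 and 2, -0.28 within replicates 3 and 4, -0.40 without vehicle replicate 1 and -0.36 without BPA replicate 3, which held 44 reads of it. Counting alone gives a coefficient of variation of 15.1% at that depth.

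Dnajb9, which encodes the cochaperone ERdj4 that helps BiP to hold IRE1 inactive, was the only 1 of the 10 with a higher mean in BPA. It was at 24.0, 22.5, 27.1 and 29.3 FPKM in vehicle replicates and at 23.9, 22.8, 32.1 and 40.5 FPKM in BPA. Replicates 1 and 2 were alike in both groups, and BPA replicates 3 and 4 exceeded all others (log2 change 0.17, 95% interval -0.25 to 0.60, adjusted p = 0.715). The change was 0.018 without BPA replicate 4, 0.0042 within replicates 1 and 2 and 0.34 within replicates 3 and 4. Dnajb9 and Creld2 overlapped in vehicle, but in BPA every library held more Dnajb9 than any library held Creld2.

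Syvn1 encodes HRD1, the ubiquitin ligase at the centre of ER-associated degradation. Its levels were 14.8, 12.6, 10.9 and 12.9 FPKM in vehicle and 9.82, 10.2, 8.29 and 7.05 FPKM in BPA, with no overlap. The mean of 8.83 ± 1.44 FPKM in BPA was 0.690 times that in vehicle (log2 change -0.49, 95% interval -0.80 to -0.18, adjusted p = 0.365). On the opposite strand Syvn1 overlaps Mrpl49, a mitochondrial ribosomal protein gene at 25.1 and 24.2 FPKM in the groups.

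Xbp1, the transcription factor gene downstream of IRE1, was at 66.8, 43.2, 61.8 and 62.3 FPKM in vehicle replicates and at 45.6, 46.9, 60.0 and 45.5 FPKM in BPA. Vehicle replicate 2 was the lowest of all 8 and BPA replicate 3 came near the other vehicle libraries, so the groups overlapped (log2 change -0.23, 95% interval -0.60 to 0.14, adjusted p = 0.592). Without vehicle replicate 2 the change was -0.36, and with GC correction -0.15. Gene-level FPKM sums the spliced and unspliced forms, so the share of active Xbp1 was not measured here.

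**Figure D3:**
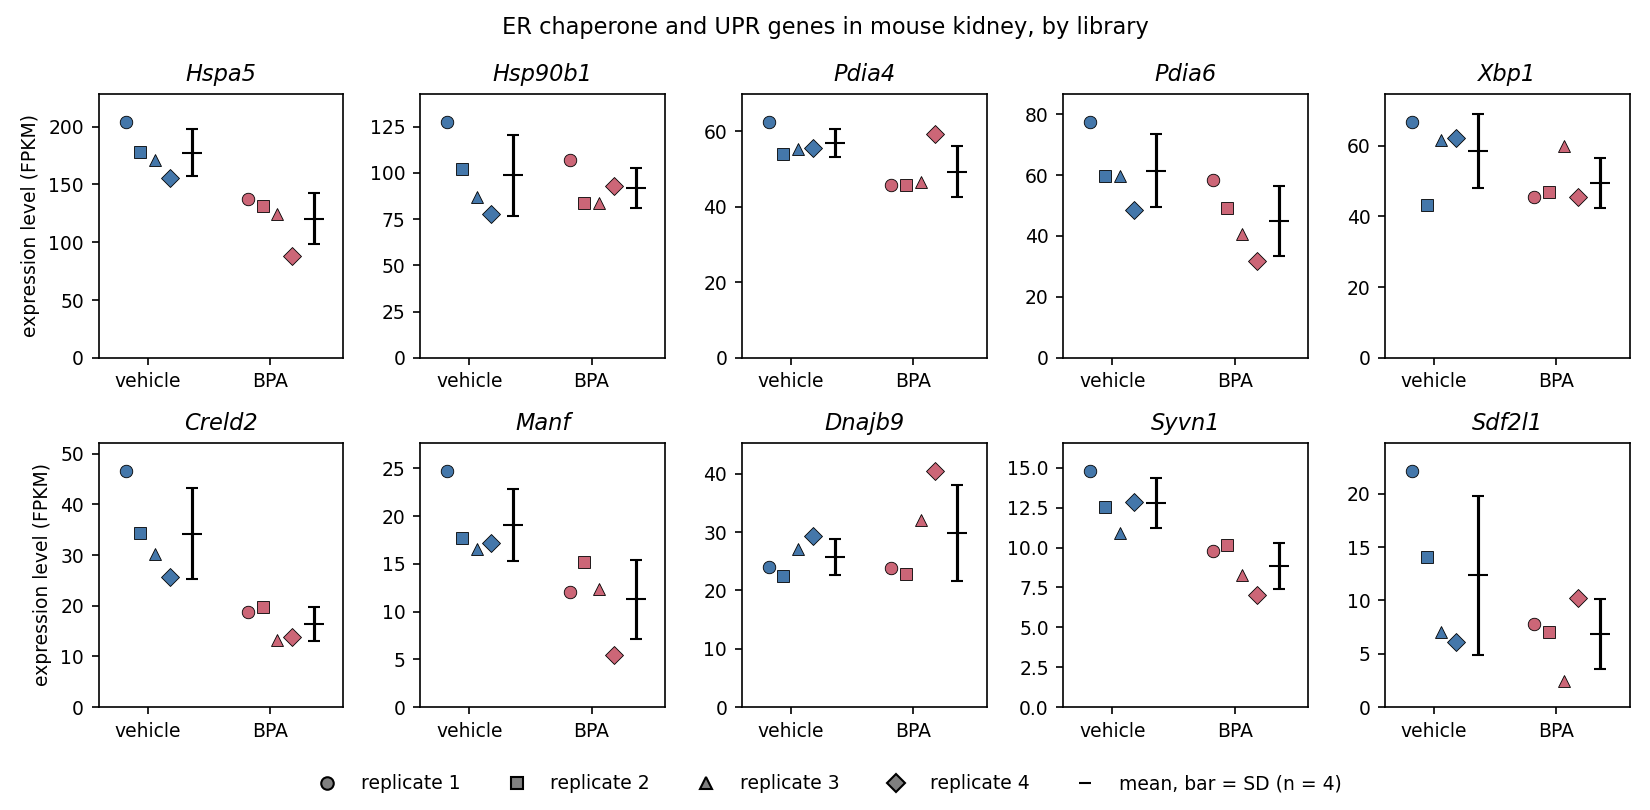
Expression level (FPKM, axes from 0) of the 10 genes in each of 4 vehicle (blue) and 4 BPA (red) libraries, with symbols for the replicate number and the mean ± SD beside them. Hspa5, Creld2, Manf and Syvn1 show no overlap between groups, and vehicle replicate 1 is the highest vehicle library in 9 of the 10 panels.

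The spread within each group was led by single libraries. Vehicle replicate 1 held the highest vehicle level of 9 of the 10 genes, Dnajb9 being the exception, and vehicle replicate 4 held the lowest of 5. Among BPA libraries, replicate 4 held the lowest level of 5 genes (Hspa5, Pdia6, Manf, Syvn1 and Xbp1) and the highest of 3 (Pdia4, Sdf2l1 and Dnajb9). The summed level of the 10 was 671, 539, 527 and 491 FPKM in vehicle and 466, 432, 424 and 394 FPKM in BPA. Every BPA sum was thus below every vehicle sum, with vehicle replicate 4 nearest to the BPA libraries.

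The counts were repeated without the libraries that stood apart. Without vehicle replicate 1 the median change of the 10 was -0.37, with 8 lower and the same 4 genes without overlap (6.05% of all tested genes in this setting). Without BPA replicate 4 it was -0.35, with 9 lower and 5 without overlap (6.10% of all). Without both replicates 4 it was -0.40, with 9 lower and 6 without overlap (8.65% of all). There 7 were lower at an unadjusted p under 0.05 (5.32% of all), and Creld2 was at -1.05. Replicates 1 and 2 of both groups also stood apart from replicates 3 and 4 in genes of the circadian clock. The clock output gene Dbp was at 0.876 to 9.02 FPKM in the former and at 22.4 to 44.2 FPKM in the latter, and the clock activator Npas2 at 4.36 to 11.1 and 0.192 to 0.253 FPKM. No label names a time of collection. Within replicates 1 and 2 the median of the 10 was -0.38 and within replicates 3 and 4 it was -0.43, with 9 and 8 of the 10 lower.

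**Figure D4:**
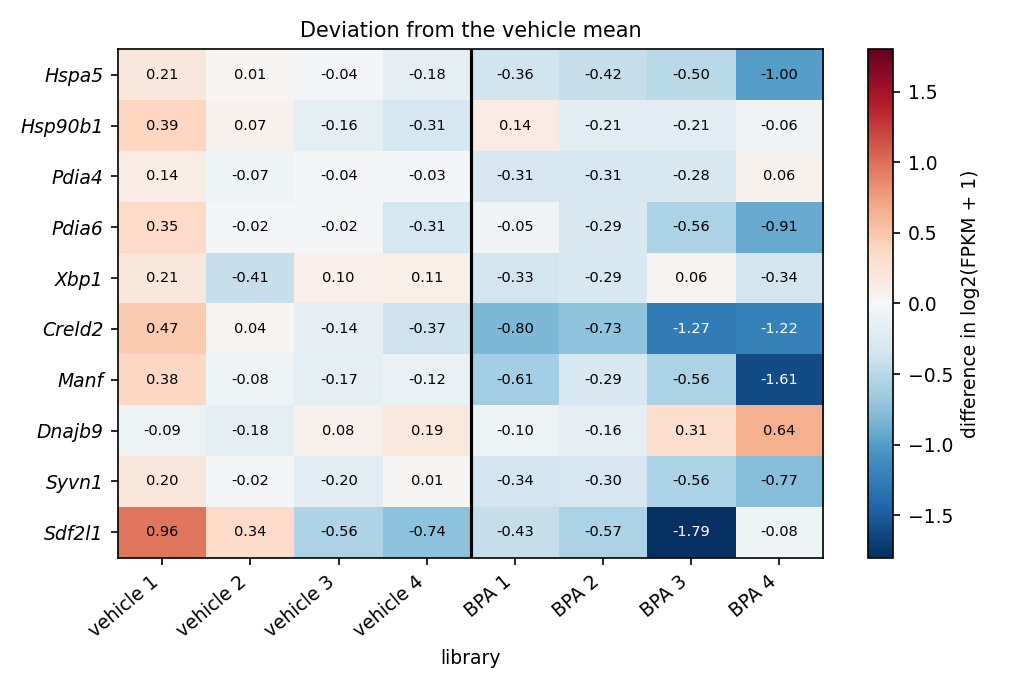
Difference of each library from the vehicle mean in log2(FPKM + 1), for the 10 genes (rows) and 8 libraries (columns), with vehicle left of the line. Red is above and blue below the vehicle mean; Creld2 is at -0.73 or lower in all 4 BPA libraries, while Dnajb9 is above the vehicle mean in BPA replicates 3 and 4.

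Other properties of the libraries moved with the groups. Mitochondrially encoded transcripts took 7.02 to 8.33% of reads in vehicle and 9.66 to 14.2% in BPA (2-sided exact permutation p = 0.0286, below which 4 against 4 libraries cannot go, adjusted p = 0.0571 over 4 library measures). Per library, the Spearman correlation of a gene's deviation with transcript GC content was 0.130 to 0.253 in vehicle and -0.287 to -0.0531 in BPA (exact permutation p = 0.0286, adjusted p = 0.0571). Transcript GC content was 40.6% in Dnajb9, 42.1% in Hsp90b1, 45.6% in Hspa5, 47.6% in Pdia4, 48.9% in Pdia6, 51.0% in Manf, 53.0% in Xbp1, 54.8% in Creld2, 56.6% in Syvn1 and 56.7% in Sdf2l1. The median of the 10 (49.98%) was close to that of all tested genes (49.7%). Of the 4 genes without overlap, Hspa5 was below the latter, and Manf, Creld2 and Syvn1 were above it. Dnajb9, the only gene with a higher mean in BPA, had the lowest GC of the 10. Hsp90b1, with a log2 change of -0.084, had the next lowest. The part of GC content in the changes was not tested. After a correction for GC in each library the median change of the 10 was -0.40, with 9 lower; Creld2 was at -0.89, Hspa5 at -0.62, Syvn1 at -0.35 and Dnajb9 at 0.058. Recovered reads were 15944081 to 17351540 per library and did not separate the groups.

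Markers of kidney and of other cells were read beside these values. Proximal tubule markers (9 genes) had a mean of 8.39 to 8.86 log2(FPKM + 1) in the 8 libraries. In BPA replicate 4 this mean was 8.75; Kap, an androgen-responsive gene of the proximal tubule, was lowest there (29692 FPKM, against 45458 to 61935 in the others) and the uptake receptor Lrp2 highest (236 FPKM, against 151 to 207). Podocyte markers summed to 53.1, 52.9, 20.3 and 17.4 FPKM in vehicle replicates 1 to 4 and to 42.6 to 63.3 FPKM in BPA. Endothelial markers summed to 56.2, 63.9, 19.0 and 17.7 FPKM in vehicle and to 32.0 to 72.9 FPKM in BPA. The thick ascending limb sum was lowest in vehicle replicate 4 (201 FPKM, against 426 to 752 in the others). Summed markers of plasma and B cells, which are rich in ER chaperones, were 345 to 875 FPKM in vehicle and 122 to 1107 FPKM in BPA over 10 genes, with the lowest sum in BPA replicate 4, and their mean log2 level did not separate the groups (exact permutation p = 0.571). Of 10 pancreatic acinar markers, 7 were at 0 in every library. Adipocyte markers summed to 3.39 to 305 FPKM in vehicle and 2.38 to 21.5 FPKM in BPA, and skeletal muscle markers to 42.6 to 396 and 48.1 to 67.0 FPKM, with vehicle replicate 4 highest in both. Outside vehicle replicate 4, most of the muscle sum was Pvalb (42.1 to 80.3 FPKM), which also marks the distal convoluted tubule. Acta1 was at 103 FPKM in vehicle replicate 4 and at 0 in every other library. Mylpf was at 29.0 FPKM there and at 0 to 1.17 FPKM in the others. Markers of T and NK cells (7 genes) summed to 2.64 to 7.09 FPKM in vehicle and 1.796 to 2.43 FPKM in BPA, without overlap. Their mean log2 level did overlap, at 0.361 to 0.941 in vehicle and 0.306 to 0.372 in BPA. It had the smallest unadjusted p of the lists (exact permutation p = 0.0571). Within the sum, Cd8a was at 0.871 to 1.78 FPKM in vehicle and at 0.135 to 0.195 FPKM in BPA replicates 1 to 3. In BPA replicate 4 Cd8a was at 1.70 FPKM. The part of these cells in the levels of the 10 genes was not tested. None of the 16 marker lists passed the exact permutation test after adjustment (smallest adjusted p = 0.718). The p of this exact permutation test cannot go below 0.0286 with 4 against 4 libraries. A single list could therefore not pass after adjustment over 16 lists, even if fully separated. No conclusion on cell make-up is drawn from this result.

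The rest of the ER folding machinery was compared through lists of its genes, with vehicle means given before BPA means. Of 35 other tested chaperones, isomerases and redox enzymes, 24 were lower and 11 higher after BPA; their median log2 change was -0.087 and 0 passing limma's test (unadjusted p under 0.05 for 4 lower and 1 higher genes). Creld1, the membrane-bound relative of Creld2, averaged 7.94 ± 0.595 against 5.35 ± 1.03 FPKM, without overlap (log2 change -0.51, adjusted p = 0.355; -0.33 with GC correction). The membrane thioredoxin Tmx4 averaged 2.03 ± 0.226 against 2.92 ± 0.308 FPKM, with every BPA library above every vehicle library (log2 change 0.37, adjusted p = 0.365).

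Genes of ER-associated degradation other than Syvn1 had 22 of 28 lower and a median of -0.13, with 0 passing (unadjusted p under 0.05 for 2 lower and 0 higher genes). The ubiquitin-conjugating enzyme Ube2g2 averaged 10.6 ± 1.21 against 7.24 ± 2.30 FPKM (adjusted p = 0.429), and the ligase Rnf5 at 28.3 ± 3.53 and 18.9 ± 6.18 FPKM (adjusted p = 0.432), with a BPA replicate 4 value of 9.67 FPKM. Rnf5 had a log2 change of -0.62 without overlap, and it was -0.35 without BPA replicate 4, -0.20 within replicates 1 and 2 and -1.05 within replicates 3 and 4. Ube2g2 was at -0.53, and at -0.33, -0.22 and -0.84 in the same settings.

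The list of the sensors and their processing gave 9 lower and 6 higher of 15 tested genes (median -0.083, 0 passing, unadjusted p under 0.05 for 2 lower and 0 higher genes). Besides sensors it held the NF-Y genes, Rtcb, Mbtps1, Mbtps2, Eif2s1, Tmbim6 and genes of the Creb3 family, so these are not counts of sensors. Ern1, which encodes IRE1, averaged 3.37 ± 0.234 against 3.62 ± 0.410 FPKM (adjusted p = 0.770), and Eif2ak3, which encodes PERK, at 5.65 ± 0.533 and 4.93 ± 0.957 FPKM (adjusted p = 0.619). Atf6 averaged 5.49 ± 0.409 against 6.79 ± 1.19 FPKM (log2 change 0.25, adjusted p = 0.477), with 8.40 FPKM in BPA replicate 4. Without that library the change of Atf6 was 0.16 and that of Eif2ak3 -0.058 in place of -0.18; Atf6 was at 0.051 within replicates 1 and 2 and at 0.46 within replicates 3 and 4. Its relative Atf6b averaged 18.2 ± 1.07 against 12.8 ± 1.75 FPKM, without overlap (log2 change -0.48, SE 0.116, adjusted p = 0.321), and it stood at -0.26 with GC correction (adjusted p = 0.653); its GC content was 60.3%. The ER membrane protein Tmbim6, a restraint on IRE1, averaged 662 ± 53.8 against 538 ± 60.8 FPKM (adjusted p = 0.451).

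In the PERK and ATF4 branch 15 of 18 tested genes were lower, with a median of -0.21 and 0 passing (unadjusted p under 0.05 for 3 lower and 0 higher genes). Atf4 averaged 40.5 ± 5.22 against 23.9 ± 11.4 FPKM without overlap (adjusted p = 0.461), and the BPA value of replicate 4 was 6.95 FPKM against 27.999 to 32.1 in the others; without that library its log2 change was -0.44 in place of -0.92. Ddit3, which encodes CHOP, averaged 3.67 ± 1.44 against 2.85 ± 1.05 FPKM (adjusted p = 0.687). The stress genes Ddit4 (log2 change -1.14, adjusted p = 0.387) and Atf5 (-0.70, adjusted p = 0.413) had the smallest p of this branch. Within replicates 1 and 2 these changes were -0.34 for Ddit4, -0.29 for Atf5 and -0.30 for Atf4, and within replicates 3 and 4 they were -1.94, -1.12 and -1.55. Without BPA replicate 4, Atf5 was at -0.47 and Ddit3 at -0.11 in place of -0.27; Ddit3 was at 0.14 within replicates 1 and 2.

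Genes of protein entry into the ER, of glycosylation and of transport out of it had list medians of -0.13, -0.030 and -0.017. Translocon and signal peptidase genes had 16 of 23 lower, with the peptidase subunit Sec11a at 30.1 ± 6.45 and 20.1 ± 3.76 FPKM (adjusted p = 0.378) and the translocon-associated Ssr2 at 37.6 ± 4.405 and 29.1 ± 3.12 FPKM (adjusted p = 0.387). N-glycosylation genes had 15 of 26 lower, with the mannosyltransferase Alg12 at 6.48 ± 0.588 and 4.45 ± 0.520 FPKM (adjusted p = 0.321) and the glucosidase Mogs at 13.4 ± 0.592 and 10.9 ± 0.798 FPKM (adjusted p = 0.378), both without overlap. COPII and retrograde transport genes had 13 of 25 lower, with the coat subunit Sec23a at 9.32 ± 0.0875 and 11.3 ± 0.824 FPKM (adjusted p = 0.387), higher in every BPA library, and Preb at 18.6 ± 1.68 and 14.9 ± 1.599 FPKM (adjusted p = 0.408). With GC correction the change of Mogs, with a GC content of 59.9%, was -0.066 in place of -0.28 (adjusted p = 0.866), that of Ssr2 -0.22 in place of -0.36 and that of Sec23a 0.15 in place of 0.25. Within replicates 1 and 2, Ssr2 was at -0.14 and Sec11a at -0.35 in place of -0.55. At an unadjusted p under 0.05 these lists had 3 lower and 0 higher, 4 lower and 0 higher, and 3 lower and 1 higher, and 0 passed in each.

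Cytosolic chaperones answer to the heat shock factor and not to the ER sensors. Their list had 16 of 22 tested genes lower (median -0.25, 0 passing, unadjusted p under 0.05 for 4 lower and 0 higher genes). It also held the mitochondrial chaperonin genes Hspd1 and Hspe1, with log2 changes of -0.061 and -0.12. Bag3, a cochaperone of HSP70, averaged 13.3 ± 2.003 FPKM in vehicle against 8.90 ± 1.198 FPKM after BPA (limma adjusted p = 0.335). The heat-inducible HSP70 gene Hspa1a averaged 1.13 ± 0.522 FPKM against 0.296 ± 0.0765 FPKM (limma adjusted p = 0.355). Both showed no overlap. The log2 change of Hspa1a was -0.69 with a pseudocount of 1 and -1.56 with 0.1, at 11 to 84 reads per library. The difference between the ER and cytosolic lists was not tested.

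**Figure D5:**
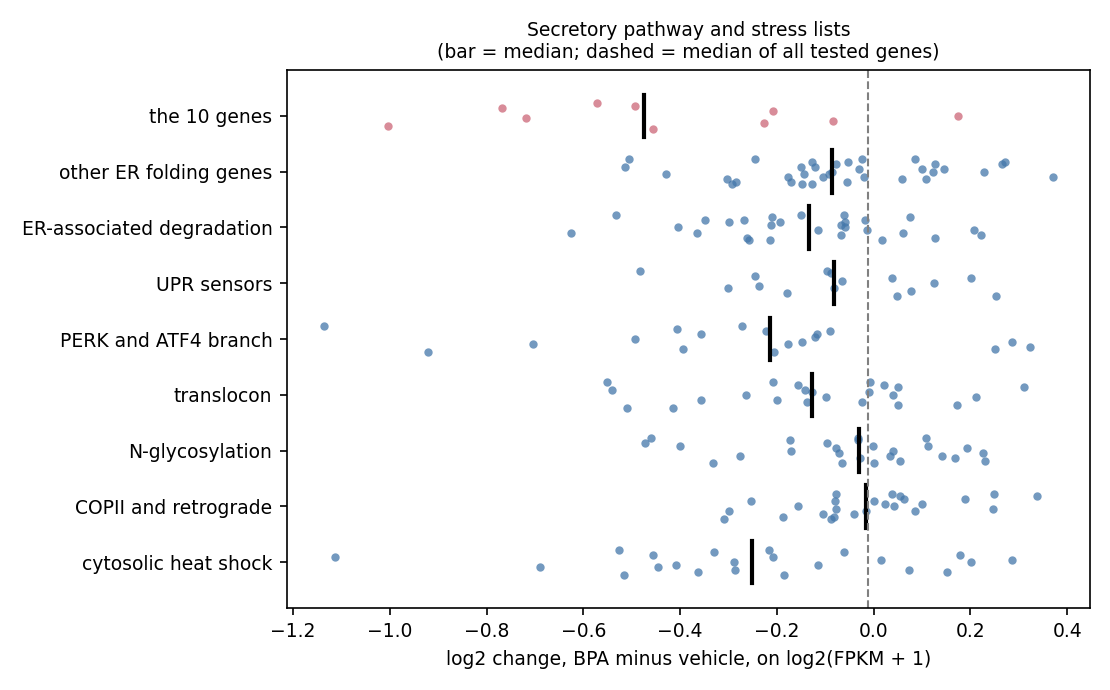
Log2 change (BPA minus vehicle, on log2(FPKM + 1)) of every tested gene of 9 lists, with a bar at each median and a dashed line at the median of all tested genes. The median of the 10 genes (top, red) is -0.47, and those of the other lists run from -0.25 for the cytosolic heat shock list to -0.017 for COPII and retrograde transport.

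The promoter element shown above was followed to genes outside the 10. Among the 28 other genes of the table with it in their RefSeq promoter, 11 were tested, of which 7 were lower and 4 higher, with a median log2 change of -0.22 (0 passing, unadjusted p under 0.05 for 2 lower and 0 higher genes). The 5 genes of the 10 with the element had log2 changes of -1.003 to -0.084 and the 4 without it -0.72 to 0.17. The following genes of the 11 are named after their values were seen, because they act in the ER. The lectin chaperone Calr averaged 292 ± 60.1 FPKM in vehicle against 216 ± 41.0 FPKM after BPA, a log2 change of -0.43 (adjusted p = 0.453). Its membrane-bound partner Canx averaged 132 ± 16.1 against 144 ± 12.6 FPKM, a log2 change of 0.13 (adjusted p = 0.696). The cochaperone Dnajc3 averaged 45.3 ± 6.8002 against 48.6 ± 3.20 FPKM (adjusted p = 0.740), and Derl3, of the ER-associated degradation channel, 1.10 ± 0.524 against 0.746 ± 0.400 FPKM (adjusted p = 0.659). Genes with this element in the window thus lay on both sides of 0.

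Alg12 and Creld2 stand head to head on chromosome 15, with 327 bases between the gene models of the table. The element of Creld2, from 88819520 to 88819538, lies 202 bases from the end of the Alg12 model and 108 bases from the start of Creld2, and it is inside the RefSeq promoter window of both. Both genes were lower in every BPA library than in any vehicle library, as were 4.66% of all tested genes. The log2 change was -0.46 for Alg12, which was named for its small p, and -1.003 for Creld2. From vehicle replicate 1 to 4, Alg12 rose from 5.91 to 7.16 FPKM, whereas Creld2 fell from 46.6 to 25.6 FPKM. In BPA replicates Alg12 was at 3.77, 4.47, 5.03 and 4.52 FPKM and Creld2 at 18.7, 19.8, 13.3 and 13.8 FPKM. Shared control through the element was not tested.

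The 5 protein-coding genes most like the mean of the 10 within groups were sought among 5980 genes with a mean of at least 5 FPKM. The measure was the Pearson correlation over the 8 libraries with the mean standardized level of the 10, each group's mean taken off. The 10 did not share 1 profile. Creld2 followed the mean of the others most closely (r = 0.85), whereas Xbp1 (0.031), Pdia4 (-0.094) and Dnajb9 (-0.65) did not follow it. The rest of the 10 were at 0.46 to 0.74. The most alike outside the 10 were Rpp30 (r = 0.974), a subunit of ribonuclease P, and Rpe (0.956), of the pentose phosphate pathway. Next were Ttll12 (0.946), Nt5e (0.928), the ecto-enzyme that makes adenosine, and Utp4 (0.923), of ribosome assembly. These values are a description of libraries that share their depth and composition. Without vehicle replicate 1 they ran from 0.756 to 0.947. Nt5e was at 48.4 FPKM in vehicle replicate 1 and at 6.28 to 18.6 FPKM in the other vehicle libraries. Between the groups these 5 genes had log2 changes of -0.048 to 0.19, none past the test.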

How the data were processed

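The authors deposited 1 table of gene-level FPKM for 8 kidney libraries. The submitters' processing notes name GRCm38 as genome build and DESeq2 1.20.0 among the tools, without saying for which step; aligner and counter: not given in the sources used here. Columns named for BPA match the BPA libraries; the remaining numbered columns were assigned to vehicle, since the labels hold no further group, and their numbers served as replicate numbers. Multiplied by gene length, the deposited FPKM values fell on steps of 1 read, from which whole reads were recovered (tolerance 0.01 reads); the 10 genes had 44 to 15811 reads per library. Single genes were compared with limma 3.58.1 (R 4.3.3; trended, robust variance, no covariate) on log2(FPKM + 1) over 13376 genes, which understates changes of low genes, with Benjamini-Hochberg adjustment over all of them. Library measures and marker lists were tested by exact permutation (2-sided, 70 assignments). GC content came from the longest transcript in GENCODE M21 and promoters from RefSeq (GRCm38.p6), where Manf was not matched. Near copies were sought with blastn 2.17.0. Other calculations used Python 3.11.15, numpy 2.4.6, pandas 2.3.3, scipy 1.17.1 and matplotlib 3.10.9. The genes and lists were chosen with earlier results of these data known. Named were the 10 genes, 3 sensors, Atf4, Ddit3, the 2 genes of smallest p in each list and the 5 most alike. Alternatives were other pseudocounts, filters, scalings, library weights, limma-voom, GC correction, a replicate block and libraries left out. The script was tested on simulated data.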

Additional observations from a re-analysis of the deposited data

Results flagged for a closer look

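In groups of 4, a library was singled out when its gap to the nearest other library exceeded the 95% limit of Dixon's test, which chance does in about 1 in 20 groups; 70 groups were examined and 9 exceeded it. Among the 10 genes, Pdia4 was at 59.4 FPKM in BPA replicate 4 and Xbp1 at 60.0 FPKM in BPA replicate 3, both above the other BPA libraries, and Manf was at 24.7 FPKM in vehicle replicate 1, above the other vehicle libraries. Among other named genes, Rnf5 (9.67 FPKM) and Atf4 (6.95 FPKM) were low in BPA replicate 4, and Mogs (12.5 FPKM) was low in vehicle replicate 2. The mitochondrial share of reads was high in BPA replicate 4 (14.2%) and in vehicle replicate 2 (8.33%). The number of genes above 0 was low for its group in vehicle replicate 3 (19693). BPA replicates 3 and 4 held still fewer (19090 and 17174), without exceeding the limit in the BPA group. On the first principal component, the axis of largest variance over the tested genes (33.2%), BPA replicate 4 stood at 57.5. The other libraries stood at -24.6 to 4.08 on it.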

How the results depend on the processing

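Each of the 10 genes kept its direction under all 20 alternatives except Hsp90b1, whose log2 change was 0.023 with quantile normalization, 0.047 without vehicle replicate 1 (-0.19 without vehicle replicate 4) and 0.099 within replicates 3 and 4 only; the cause was not tested. None of the 10 passed limma's test under any of the 20, where the smallest adjusted p was 0.134. Their median ran from -0.35 to -0.57 with libraries left out. The 4 genes lower at an unadjusted p under 0.05 (6.83% of all genes) became 3 to 5 with 1 library left out (5.05 to 7.56% of all), 7 without both replicates 4 (5.32%), 6 within replicates 1 and 2 (5.69%) and 2 within replicates 3 and 4 (7.12%). Genes without overlap became 4 to 5 with 1 library left out (6.03 to 8.24% of all), 6 without both replicates 4 (8.65%), 7 within replicates 1 and 2 (23.0%) and 6 within replicates 3 and 4 (26.1%), the share rising as fewer libraries are compared. These repeated counts were chosen after seeing the data. Over all genes, 1 was called, 0 to 4 with 1 library left out, 8 with library weights, 0 with limma-voom, 0 with a replicate block, 2 within replicates 1 and 2 and 0 within replicates 3 and 4. Ern1 was at -0.064 and Ddit3 at 0.14 within replicates 1 and 2. The replicate block changed no call of the 10; the deviations of same-numbered libraries correlated at 0.14, 0.019, 0.14 and -0.033, and not every library correlated best with its own number. Sdf2l1, with 44 to 449 reads per library, is the gene that depth limits most.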
